A study of Mus musculus with 2 samples.

Results

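The dual-specificity MAP kinase phosphatases are enzymes that switch off ERK, JNK and p38, the MAP kinases, and 10 of their genes were followed in HT22 cells exposed to J147, a neurotrophic compound. The members were taken by name: every probe set that the array annotation pairs with the symbols Dusp1, Dusp2, Dusp4, Dusp5, Dusp6, Dusp7, Dusp8, Dusp10, Dusp14 and Dusp16. All 10 were found, with 16 probe sets, among 18193 annotated genes. These cells are an immortalized line of mouse hippocampal origin. Cells grown in DMEM with serum were exposed for 1 h to J147 in the one group and to the DMSO vehicle in the other, and RNA of each was hybridized to an Affymetrix mouse GeneChip. The sample labels give the J147 concentration as 10 mM, while the methods give it as 10 μM. Each condition has 1 array. Replicate error and p-values are therefore missing, and an effect of J147 cannot be told apart from whatever else differed between the cultures.

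A MAP kinase is active while a threonine and a neighbouring tyrosine of its activation loop both carry phosphate, and these phosphatases remove both. Dusp1, Dusp2, Dusp4 and Dusp5 encode nuclear enzymes whose genes are themselves transcribed soon after the kinases are activated, so that they close a negative feedback loop. Dusp6 and Dusp7 encode cytosolic enzymes selective for ERK. Dusp8, Dusp10 and Dusp16 encode enzymes that prefer JNK and p38, and Dusp14 encodes a small enzyme without the kinase-docking domain of the others. In neurons, ERK signaling downstream of neurotrophins is among the pathways that these enzymes restrain.

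The promoters are shown first, since rapid induction of some of these genes is known to run through short elements near the transcription start. The windows are the 250 bases upstream of the annotated start in the RefSeq annotation of GRCm38.p6, in which 9 of the 10 genes were matched. Dusp4, the member with the largest difference, was not among them. Capitals mark matches to any of 8 motifs on either strand: TGACGTCA (the full cyclic AMP response element, CRE, bound by CREB and ATF factors), TGACG (the core of that element, also bound by them), TGANTCA (AP-1, bound by FOS and JUN), CCGGAAG (ETS factors), GCGGGGGCG (EGR factors), CACGTG (the E-box of MYC, MAX and clock factors), GGGANTTCC (NF-kB) and the CArG box of SRF. Dusp5 and Dusp1 are printed because they had the second largest positive difference and the largest negative difference of the scored members. Dusp5 lies on chr19:53528895-53529144, plus strand, and Dusp1 on chr17:26508473-26508722, minus strand.
Dusp5: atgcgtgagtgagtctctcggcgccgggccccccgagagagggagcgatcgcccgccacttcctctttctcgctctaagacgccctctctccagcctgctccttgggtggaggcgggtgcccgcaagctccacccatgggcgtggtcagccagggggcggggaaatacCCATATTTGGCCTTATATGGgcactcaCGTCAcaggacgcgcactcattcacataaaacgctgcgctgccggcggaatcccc
Dusp1: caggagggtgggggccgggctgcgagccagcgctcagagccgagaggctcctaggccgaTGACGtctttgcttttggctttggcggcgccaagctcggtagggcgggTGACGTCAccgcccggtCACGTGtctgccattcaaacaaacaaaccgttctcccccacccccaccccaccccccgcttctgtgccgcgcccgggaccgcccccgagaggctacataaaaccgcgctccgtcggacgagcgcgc

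The Dusp5 window held a pair of CArG boxes side by side, the first beginning 82 bases and the second 72 bases before the start, and a CRE core ending 51 bases before it. A CArG box was found in 1.47% of the 32851 promoter windows of the annotation, and among the 9 members only in Dusp5. The Dusp1 window held a full CRE beginning 143 bases before the start, an E-box at 126 bases and a further CRE core at 191 bases. A full CRE was found in 1.55% of all windows and in 2 of the 9 members, Dusp1 and Dusp8. The Dusp8 window held it in 2 places, and the stretch that contains both is printed here, after its matches were seen (chr7:142095330-142095399, minus strand).
Dusp8: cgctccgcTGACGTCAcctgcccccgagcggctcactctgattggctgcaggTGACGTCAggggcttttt

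Each full CRE also contains the core, which was found in 4 members, Dusp1, Dusp5, Dusp8 and Dusp16, and in 17.8% of all windows. Dusp2 held an EGR motif, found in 2.57% of windows, and Dusp2 and Dusp1 held an E-box, found in 6.02%. No AP-1, ETS or NF-kB match was found in the members, and these were in 6.75%, 6.91% and 1.43% of all windows. Dusp6, Dusp7, Dusp10 and Dusp14 held none of the 8. A match describes letters in the window, and whether any factor bound there was not measured. Member windows were rich in G and C, from 56.4% for Dusp6 to 77.2% for Dusp7, beside a median of 52.4% over all windows.

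**Figure D1:**
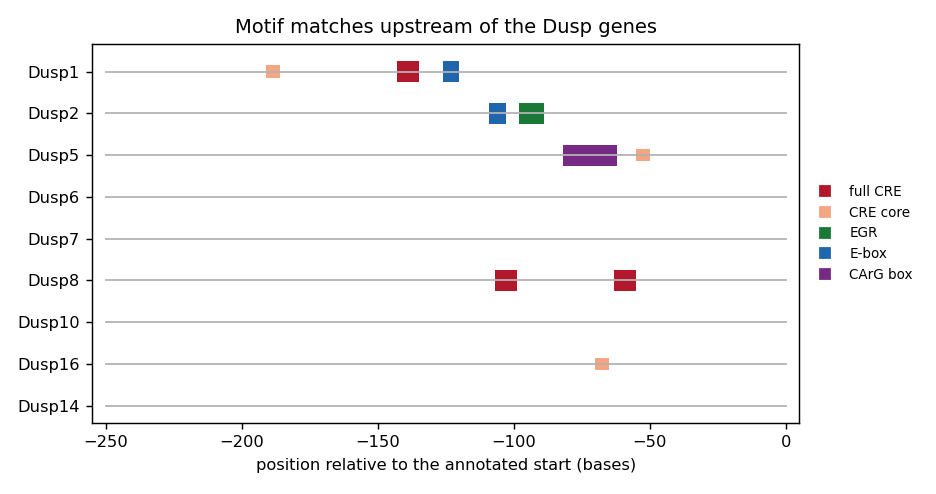
Positions of motif matches (bars) in the 250 bases upstream of the annotated start (horizontal axis, bases) of the 9 Dusp genes with a promoter window (vertical axis). The CArG boxes of Dusp5 adjoin each other, Dusp8 holds 2 full CREs and Dusp1 holds 1, and a CRE core inside a full one is hidden by it.

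The deposited values are gcRMA intensities on the log2 scale, and gcRMA corrects each probe for the background expected from its GC content. They share a lowest value of 2.234, at which 46% of the 45037 non-control probe sets lay on the J147 array and 46.3% on the vehicle array. A probe set at that value has no measured level, and its mRNA may still be present, since the only probe set of the ribosomal protein gene Rps16 was also there. Scaled intensities set the median of each array to 100, a probe set was scored if its mean over both arrays exceeded 100, and a gene was read from its brightest scored probe set. After scaling, the lowest value was 95.1 on the J147 array and 95.4 on the vehicle array. A scored probe set can therefore still lie close to the lowest value. The difference given throughout is log2 J147 minus log2 vehicle. Over the 10611 scored genes it had a median of -0.0046 and an SD of 0.17, and the central 95% lay between -0.39 and 0.31. That median is the value which scaling gives to a probe set with equal deposited values on both arrays, and without scaling it was 0. Control transcripts differed too, by log2 differences of -0.62 for 18S rRNA and medians of 0.14 for the hybridization spikes and -0.16 for the labelling spikes, and their part in the values below was not tested. The log2 signal of 3′ over 5′ control probes, a measure of intact RNA, differed by -0.06 for Gapdh and -0.03 for Actb. Of 8 neuronal marker genes, 2 were above the lowest value on both arrays, Tubb3 and Syp, against 6 of 7 fibroblast markers. Above it too were 2 of 6 astrocyte and 1 of 5 microglia markers, and no oligodendrocyte or endothelial marker. Since an mRNA at the lowest value may still be present, these counts do not settle what the cells are. Log2 differences of the scored markers were at most 0.23 in size for neurons and 0.34 for fibroblasts.

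Of the 10 members 9 were scored. Dusp4 passed 2-fold upward with J147 and no member passed it downward, where 0.066% and 0.0754% of all scored genes passed in those directions. At 1.5-fold it was again Dusp4 alone of the 9 that was higher, beside 0.556% of scored genes, and none was lower, beside 0.81%. A fold of 1.2 was added after the values were seen. At that size 5 members were higher, Dusp4, Dusp5, Dusp16, Dusp14 and Dusp10, beside 3.6% of scored genes, and 2 were lower, Dusp1 and Dusp8, beside 6.22%. By the mean of the scored probe sets of a gene, 4 were higher and 1 was lower, Dusp1. Dusp6 and Dusp7 passed in neither direction. The median log2 difference of the 9 was 0.33. Of the 14 scored probe sets of the members, 7 were higher by more than 0.05 log2 units, 4 were lower by more than that and 3 lay between.

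**Figure D2:**
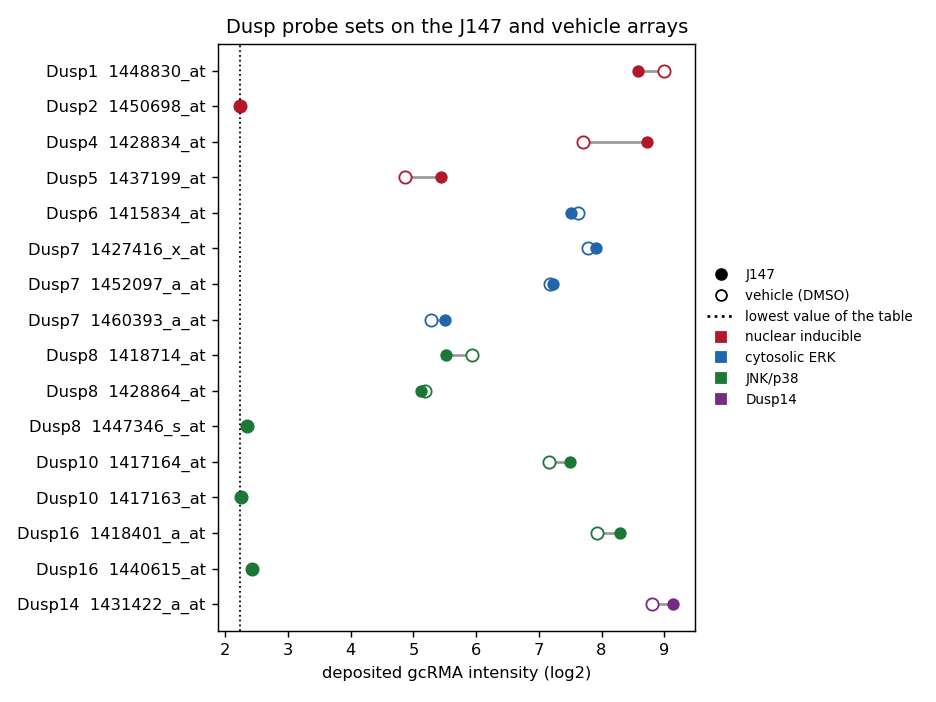
Deposited gcRMA intensity on the log2 scale (horizontal axis) of each of the 16 Dusp probe sets (vertical axis) on the J147 array (filled circles) and the vehicle array (open circles), 1 array each, colored by class, with the lowest value of the table as a dotted line. The line joining the 2 values is longest for Dusp4, and the values of Dusp1 and of the upper Dusp8 probe set are lower with J147.

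The nuclear inducible class differed most among its own members. Dusp4 encodes a nuclear phosphatase of ERK and JNK. Its single probe set, 1428834_at, had a deposited log2 intensity of 8.73 on the J147 array and 7.70 on the vehicle array. The scaled intensities were 8573 for J147 and 4231 for vehicle, which is 2.03-fold higher with J147. As no replicate exists, the scatter between the arrays was described by the SD of the log2 difference over the 500 scored probe sets nearest in level, which was 0.16 for Dusp4, against its difference of 1.02. Probe sets with equal deposited values on both arrays, 18.9% of all scored ones, were kept in these SDs and lower them. Dusp4 was at place 5 from the highest of the 10611 scored genes.

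Dusp5 encodes a nuclear phosphatase that acts on ERK alone. Probe set 1437199_at had log2 intensities of 5.43 for J147 and 4.87 for vehicle, so that both lay 2.6 log2 units or more above the lowest value. Its scaled intensities were 874.5 and 593 for J147 and vehicle, a fold of 1.47. The log2 difference of 0.56 stood beside an SD of 0.25 among probe sets near it in level, and it was just short of 0.58, the log2 of 1.5-fold. Dusp5, whose promoter held the paired CArG boxes, was at place 66 from the highest.

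Dusp1, the archetype of the family, encodes a nuclear phosphatase that prefers p38 and JNK over ERK and is induced by growth factors and by stress. It was lower with J147. Probe set 1448830_at had log2 intensities of 8.57 for J147 and 9.0 for vehicle, with scaled intensities of 7704 on the J147 array and 10399 on the vehicle array. The log2 difference was -0.43, or 1.35-fold lower, with an SD of 0.15 among its neighbours in level, and Dusp1 was at place 216 from the lowest of the scored genes. Dusp2, known from activated lymphocytes, had the lowest value of the table with J147 and with vehicle in its single probe set 1450698_at, so that no difference can be read. The 3 scored genes of this class thus ran from -0.43 to 1.02 with a median of 0.56, the value of Dusp5.

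**Figure D3:**
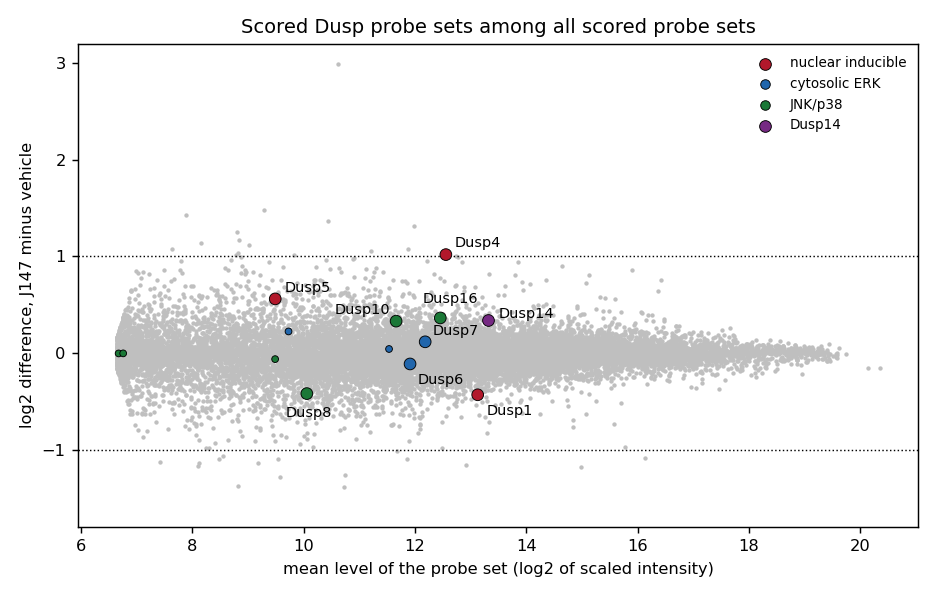
Log2 difference, J147 minus vehicle (vertical axis), against the mean level of each scored probe set (horizontal axis, log2 of scaled intensity), with all scored probe sets in grey, those of the Dusp genes in color and larger points for the probe set from which a gene was read. Dotted lines mark 2-fold, which Dusp4 passes at 1.02, and Dusp1 and Dusp8 lie below 0 at -0.43 and -0.42, with grey points of similar level below them.

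The cytosolic phosphatases of ERK differed little. Dusp6, which binds ERK in the cytoplasm and is widely used as a readout of ERK signaling, had log2 intensities of 7.52 for J147 and 7.63 for vehicle in probe set 1415834_at. The scaled intensities were 3707 for J147 and 4011 for vehicle, and the log2 difference of -0.11 was smaller than the SD of 0.21 among its neighbours. Dusp7 had 3 probe sets, with log2 differences of 0.12, 0.04 and 0.22. The brightest, 1427416_x_at, had log2 intensities of 7.90 for J147 and 7.78 for vehicle, and its suffix marks probes that may also bind other transcripts. In 1452097_a_at they were 7.22 for J147 and 7.17 for vehicle, and in 1460393_a_at 5.50 for J147 and 5.28 for vehicle. Each of the 3 differences was smaller than the SD among probe sets of its level, which ran from 0.18 for the first to 0.23 for the last. The median of the class, over 2 genes, was 0.001.

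The phosphatases of JNK and p38 lay on both sides. Dusp16 encodes a phosphatase selective for JNK that shuttles between nucleus and cytoplasm, and its probe set 1418401_a_at had log2 intensities of 8.30 for J147 and 7.93 for vehicle. The scaled intensities were 6372 for J147 and 4954 for vehicle, a fold of 1.29, with a log2 difference of 0.36 beside an SD of 0.17. The other Dusp16 probe set, 1440615_at, was close to the lowest value, at 2.42 on both arrays, and showed no difference. Dusp10, which acts on p38 and JNK, had log2 intensities of 7.49 for J147 and 7.16 for vehicle in 1417164_at. Its scaled intensities were 3634 and 2892 for J147 and vehicle, a fold of 1.26, and the log2 difference of 0.33 stood beside an SD of 0.19. The other Dusp10 probe set, 1417163_at, was no more than 0.015 log2 units above the lowest value of the table and was not scored.

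Dusp8, a phosphatase of JNK and p38 that is prominent in brain and heart, was lower with J147 in its brightest probe set and not clearly so in the next. In 1418714_at the log2 intensities were 5.51 for J147 and 5.93 for vehicle, with scaled intensities of 922.5 for J147 and 1235 for vehicle. This is 1.34-fold lower, and the log2 difference of -0.42 compared with an SD of 0.24 among neighbours in level. Probe set 1428864_at, at a like level, had log2 intensities of 5.12 for J147 and 5.18 for vehicle, a difference of -0.06. The last, 1447346_s_at, had the same value of 2.34 on both arrays, close to the lowest. By the mean of the 3 probe sets the Dusp8 difference was -0.16, and the Dusp16 difference by the mean of its 2 was 0.18. The class had a median of 0.33, the value of Dusp10, within a range from -0.42 to 0.36.

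Dusp14, which lacks the docking domain, was measured by 1431422_a_at alone, with log2 intensities of 9.15 for J147 and 8.80 for vehicle. Its scaled intensities were 11454 for J147 and 9045 for vehicle, a fold of 1.27. The log2 difference was 0.34, with an SD of 0.16 among its neighbours. It thus differed by about as much as Dusp16 and Dusp10, which were at places 188 and 228 from the highest, with Dusp14 at place 209 among all scored genes.

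The readings of Dusp4, Dusp5, Dusp1 and Dusp6 each rest on 1 probe set. Of the 16 probe sets, 6 end in _a_at, _x_at or _s_at, endings for probes shared by several transcripts of a gene or by several genes. Without these, Dusp7 and Dusp14 had no reading, Dusp16 was read from its dim probe set, 3 of the remaining 7 genes were at least 1.2-fold higher, and the median was -0.0039. Over the other normalizations and the pseudocount Dusp4 lay between 1.01 and 1.04 and Dusp1 between -0.43 and -0.42, while the alternatives of filter and probe set choice could not move either, since each has a single probe set. In RNA pooled from a whole culture, fewer cells with an mRNA and less of that mRNA per cell cannot be told apart.

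**Figure D4:**
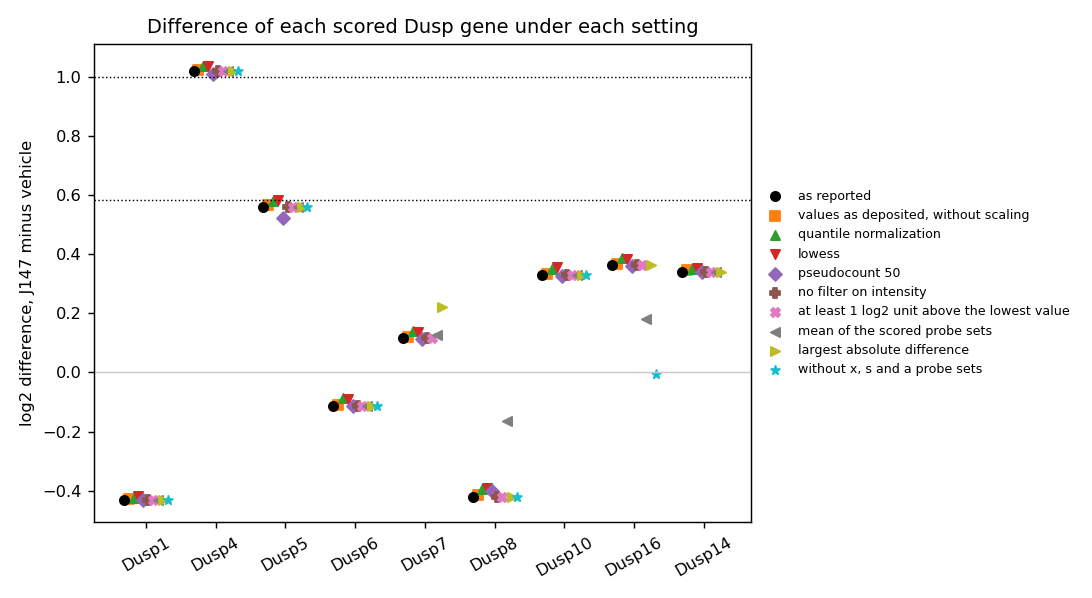
Log2 difference, J147 minus vehicle (vertical axis), of each scored Dusp gene (horizontal axis) as reported (black) and under 9 alternatives (colored symbols), with dotted lines at 1.5-fold and 2-fold. The points of Dusp4 and Dusp1, which have a single probe set each, lie close together, while Dusp16 reaches -0.0039 and Dusp8 reaches -0.16 under other choices of probe set.

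Among the kinases that the phosphatases act on and among other phosphatases, no scored gene passed 1.5-fold, where 0.556% of all scored genes were higher and 0.81% lower. Of 27 listed genes of the ERK cascade, from RAS proteins to ERK and its downstream kinases, 20 were scored, and their median log2 difference was -0.03. The largest were 0.36 for Mapk7, which encodes ERK5, with log2 intensities of 6.62 for J147 and 6.25 for vehicle, and -0.25 for Sos2, an exchange factor that activates RAS, with 8.25 for J147 and 8.49 for vehicle. Of 27 listed genes of the JNK and p38 cascades 23 were scored. The median was -0.0046, that of all scored genes and of any probe set with equal deposited values on both arrays. Map3k12, a kinase upstream of JNK in neurons, had the largest difference, -0.45, with log2 intensities of 7.13 for J147 and 7.58 for vehicle. Map2k3, which activates p38, was next at 0.32, with 10.9 for J147 and 10.6 for vehicle. In all, 58 genes of 4 lists of kinases and phosphatases were scored, and 0 of them were 1.5-fold different, which is near the share over all scored genes and says nothing particular about these lists.

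Those lists include other dual-specificity phosphatases, of which 7 of 15 were scored, with a median of 0.05 and a range from -0.05 to 0.24. The highest was Dusp12, an atypical member with a zinc-binding domain, at log2 intensities of 8.62 for J147 and 8.38 for vehicle. Of its other 2 probe sets 1 was not scored. The last lay close to the lowest value, at 2.35 on both arrays, with a difference of -0.0047. Dusp3, which can act on ERK and JNK, had 8.59 for J147 and 8.45 for vehicle in its brightest probe set, a difference of 0.14. Its other scored probe sets lay on either side of 0, with differences of 0.09 and -0.06. Of 11 listed genes of serine/threonine and tyrosine phosphatases that act on MAP kinases 8 were scored, with a median of -0.0042. Ppm1d, a phosphatase induced by p53, had -0.29, with 7.72 for J147 and 8.0 for vehicle, and the PP2A regulatory subunit gene Ppp2r2a had 0.21, with 10.1 for J147 and 9.86 for vehicle.

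Genes that restrain or report ERK signaling at other points did include some past 1.5-fold. Of 8 scored of 10 listed ERK feedback genes, 1 was at least 1.5-fold higher, Spry2, an inhibitor of receptor tyrosine kinase signaling, with scaled intensities of 2869 for J147 and 1907 for vehicle, beside 0.556% of all scored genes. None was 1.5-fold lower, beside 0.81%, and the median was 0.05. The count depended on the processing. Spry2, only just past 1.5-fold, did not pass with a pseudocount of 50, and with the probe set of largest difference Spred2, another inhibitor of the RAS to ERK pathway, passed as well. The other Spry2 probe set, 1421656_at, lay close to the lowest value and was not scored. The 4 scored probe sets of Spred2, a gene named here after its values were seen, disagreed. Its brightest, 1434403_at, had the same log2 intensity of 8.59 on both arrays, as 18.9% of all scored probe sets did, whereas 1441802_at had 4.27 for J147 and 2.84 for vehicle, 2.69-fold higher. Of 18 scored of 22 listed ERK-responsive transcription factors, 3 were at least 1.5-fold higher and none was lower, beside the same 0.556% and 0.81%, with a median of 0.12. They were Egr3 at a log2 difference of 3.0, Egr1 at 1.31 and Fosl1 at 0.76. The other Egr3 probe set, 1421486_at, lay at the lowest value on both arrays and was not scored, and the other Fosl1 probe set was at 0.94. Of the 18 genes, 13 lay above 0 and 5 below, the lowest at -0.27. In the size of the difference Dusp4 lay below Egr3 and Egr1 and above Fosl1, and Dusp5 lay below all 3. Dusp6, also a gene that responds to ERK, had a difference of -0.11. The activity of ERK was not measured. These lists share both arrays with the members, were chosen with earlier results of these data known, and are set beside them as a description. Their counts beside the shares over all scored genes are therefore no test.

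**Figure D5:**
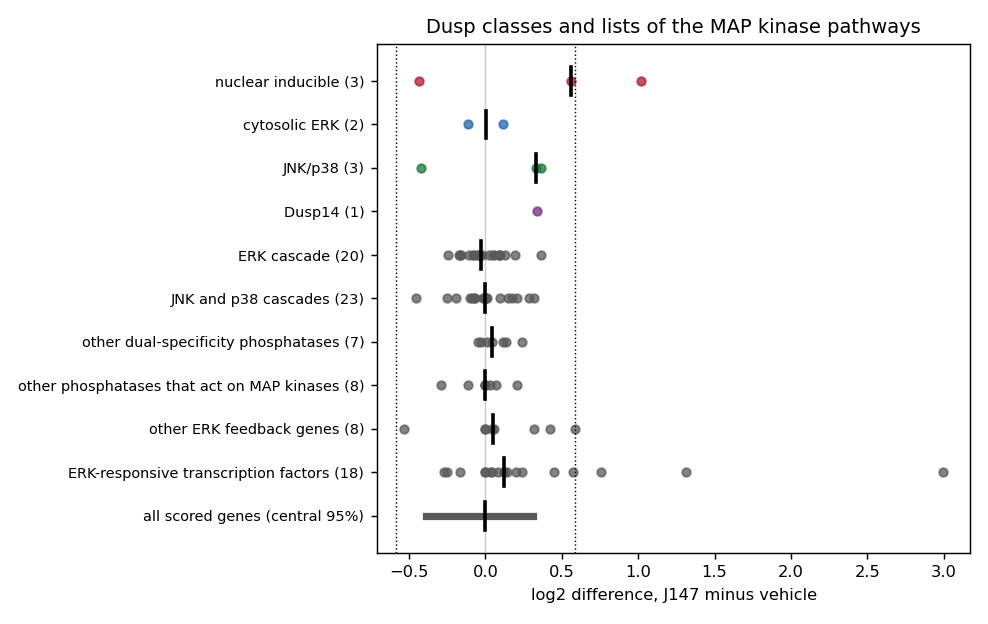
Points are scored genes of the Dusp classes and of 6 pathway lists (vertical axis, with the count of genes in parentheses), placed by their log2 J147 minus log2 vehicle (horizontal axis), with medians as black bars, the central 95% of all scored genes as a grey bar and dotted lines at 1.5-fold. The kinase and phosphatase lists center near 0, while the nuclear inducible class spreads from -0.43 to 1.02.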

How the data were processed

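Intensities were summarised by the authors with the gcRMA algorithm in R, and were deposited as log2 values of 45101 probe sets, 64 of them controls. Affymetrix Expression Console 1.0 is also named in the notes of the submitters. The gcRMA version and a genome build are not given in the sources used here.

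Each array was scaled to a median of 100 over non-control probe sets, and the 22545 whose mean over both arrays exceeded 100 were scored. Of the 45037, 34945 have 1 symbol in the platform annotation, 932 have several and 9160 have none. No test was possible with 1 array per condition. The text names all members and, from each pathway list, up to 4 scored genes at least 1.5-fold different or else the 2 with the largest differences. Members and lists were chosen with earlier results of these data known. Alternatives covered normalization (none, quantile, lowess with span 0.3), a pseudocount of 50, filters, the choice of probe set and the fold threshold. Protein sequences were not used here. Python 3.11.15, numpy 2.4.6, pandas 2.3.3, statsmodels 0.14.6 and matplotlib 3.10.9 were used, and the calculation was tested on simulated data. Precision is limited by the number of arrays.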

Additional observations from a re-analysis of the deposited data

How the results depend on the processing

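Of 79 values of single genes under an alternative, 38 equalled the reported one, because a filter or a choice of probe set cannot move a gene whose brightest or only scored probe set it keeps. Of the other 41, 38 lay within 1 SD of the reported value, the SD being that of the log2 difference among probe sets near in level. The 3 that did not were Dusp8 and Dusp16 by the mean of the scored probe sets and Dusp16 without probe sets ending in _x_at, _s_at or _a_at. Of 94 counts and medians, 85 stayed close, which means within 1.5 times for counts and, for medians, within the SD over all scored genes divided by the square root of the number of members. The counts of members higher by 2-fold or 1.5-fold held Dusp4 alone. No filter or choice of probe set can move its single probe set, so part of this closeness was fixed in advance. Dusp4, the only member past 1.5-fold, kept its sign, which no filter or choice of probe set could change. Dusp16, at 0.36 as reported, was -0.0039 without probe sets of the 3 endings. With no filter on intensity, which brings in Dusp2 at the lowest value, the median of the members was 0.22 and that of the nuclear inducible class 0.28. By the mean of the scored probe sets the median was 0.18 for the members and 0.18 for the JNK and p38 class, and 1 member was at least 1.2-fold lower. Without probe sets of the 3 endings, it was -0.0039 for both, with 3 members at least 1.2-fold higher. The counts of the pathway lists were set under the same alternatives after the data were seen, and that of the ERK feedback genes ran from 0 with a pseudocount of 50 to 2 by the largest absolute difference. At a threshold of 2.5-fold, 0 members were higher. The median of all genes lay between -0.0046 and 0 under every setting. A probe set at or near the lowest value can show no fall, which limits Dusp2 and the dim probe sets of Dusp8, Dusp10 and Dusp16.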
